A study of Mus musculus with 15 samples.

Results

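Caveolae and the diaphragms of fenestrae were followed here through 4 genes, Cav1, Cav2, Plvap and Ehd2. The data were bulk RNA-seq of cells cultured from mouse bone marrow and lung. The name endothelial cells (ECs) is the study's, and marker levels are given below. The 4 genes were chosen by symbol, and all 4 were found among the 44674 genes of the count table and passed the filter on low counts. The table held 15 libraries in 8 conditions. Whole bone marrow (WBM) or lung of wild type (WT) labelled mice was grown in endothelial medium for about 2 weeks, and cells were sorted by the surface sialomucin endomucin (Emcn). By the study's methods the mice were 4 to 6 months old and carried Tie2-CreERT2;Rosa26-tdTomato, in which the Tie2 promoter drives a tamoxifen-inducible Cre and tdTomato marks the cells that recombined. Tamoxifen was given at 2 to 7 weeks of age, and the sorted cells were DAPI-, CD45- and tdTomato+. P0 Emcn+ BMECs (bone marrow ECs), P0 Emcn- BMECs and Emcn- ECs of lung cultures had 2 libraries each. P1, P2 and P3 Emcn- BMECs also had 2 libraries each, and P4 Emcn- BMECs had 1, so no spread can be given for P4. The study replated P0 cells both as WBM cultures and as sorted Emcn- cells. Its text does not say which of these gave the passaged libraries. BM MSC (mesenchymal stromal cells, 2 libraries) came from Osx-Cre;Rosa26-tdTomato mice, where the osterix promoter drives Cre, and were grown in another medium. That the lung ECs were Emcn- is stated by the study and not by the labels of these libraries. A dish usually held the marrow of 1 mouse, and nothing states which libraries shared a mouse, so each p-value measures the spread between libraries.

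Caveolae are flask-shaped pits of the plasma membrane that are dense in endothelium, fibroblasts and adipocytes. Cav1 is the coat protein they are built from, Cav2 is its partner in mixed oligomers, and Ehd2 is an ATPase that sits at the neck of the pit and holds it at the membrane. Plvap makes the thin diaphragms that span caveolae, fenestrae and transendothelial channels, and the sinusoids of bone marrow are among the vessels known for it. On GRCm38, with the GENCODE M21 annotation, Cav2 (ENSMUSG00000000058) spans chr6:17281185-17289115 and Cav1 (ENSMUSG00000007655) spans chr6:17306335-17341452, both on the plus strand. They are neighbouring coding genes 17219 bases apart. Plvap (ENSMUSG00000034845) lies on the minus strand at chr8:71497765-71511752 and Ehd2 (ENSMUSG00000074364) on the minus strand at chr7:15946958-15967567.

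Because Cav1 and Cav2 are adjacent and their levels are compared below, the 250 bases before 1 RefSeq start of each (GRCm38.p6) are shown 5′ to 3′. Capitals mark the letters of 2 of the 3 motifs searched. The Cav2 window is chr6:17280935-17281184 and the Cav1 window is chr6:17306085-17306334, both on the plus strand. Cav1 has another RefSeq window, chr6:17307390-17307639, which is not shown.
Cav2: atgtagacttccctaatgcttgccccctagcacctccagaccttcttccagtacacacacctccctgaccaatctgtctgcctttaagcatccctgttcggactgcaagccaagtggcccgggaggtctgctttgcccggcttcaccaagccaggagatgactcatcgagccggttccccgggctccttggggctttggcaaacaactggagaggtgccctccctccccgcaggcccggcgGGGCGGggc
Cav1: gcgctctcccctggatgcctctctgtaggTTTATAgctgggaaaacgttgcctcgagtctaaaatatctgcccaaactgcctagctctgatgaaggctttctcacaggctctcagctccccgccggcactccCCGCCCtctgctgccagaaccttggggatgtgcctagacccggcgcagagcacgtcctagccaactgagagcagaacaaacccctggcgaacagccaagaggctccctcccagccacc
The motifs were a GC box (GGGCGG), an ETS core (CCGGAA) and a TATA box (TATAAA), each read on both strands, so that TTTATA and CCGCCC in the Cav1 window are matches on the other strand. The Cav2 window held 1 GC box, whose first base was 9 bases before the start. The Cav1 window held 1 GC box at 118 bases and 1 TATA box at 221 bases before the start. Neither of these windows held the ETS core, and the Cav1 window that is not shown held none of the 3 motifs. Among 32544 mouse promoter windows of this length, 33.0% held the GC box, 12.1% the ETS core and 12.3% the TATA box. The windows shown were 62.0% GC for Cav2 and 59.6% GC for Cav1, above the median of 52.4% for all windows. The Cav1 window not shown was 60.8% GC.

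Libraries held 9914620 to 39718807 counts, and the shallowest was P0 Emcn- replicate 2. Levels are CPM, the counts scaled to the library's total, and 3 counts correspond to 0.0755 to 0.303 CPM. Replicates of each condition differed by more than counting noise. The labels name 4 batches. Replicate 1 of both P0 groups and of lung was batch d and replicate 2 was batch a, whereas replicate 1 of the passaged BMECs was batch b and replicate 2 was batch c together with both BM MSC libraries. The summed level of 10 endothelial markers was 10345 to 12100 CPM in P0 Emcn+ BMECs, 71.4 to 263 CPM in P0 Emcn- BMECs, 179 to 811 CPM in lung Emcn- ECs, 30.4 to 59.6 CPM in P1 to P4 Emcn- BMECs and 42.3 to 354.5 CPM in BM MSC. Cdh5 (VE-cadherin), which defines endothelium, was at 119 and 6.35 CPM in P0 Emcn- BMECs and at 0.0564 to 2.33 CPM in the passaged ones. Cldn5 was at 0 in P4. Tek, also among the 10 markers, was at 20.3 and 49.4 CPM in P0 Emcn- BMECs and at 14.95 to 40.3 CPM in the passaged ones. In P1 replicate 1 it gave 40.3 of the 59.6 CPM of the endothelial sum. For 9 of the 10 markers the lower P0 Emcn+ library still exceeded every library of the other conditions. The exception was Vwf, at 4.82 and 6.72 CPM in P0 Emcn+ BMECs against 21.9 and 201 CPM in lung. Emcn itself was at 631 and 798 CPM in P0 Emcn+ BMECs, 12.7 and 2.52 CPM in P0 Emcn- BMECs and 0.925 to 3.68 CPM in passaged BMECs. In the lung libraries it was at 32.6 and 125 CPM, above both P0 Emcn- libraries, and Cdh5 was at 39.5 and 171 CPM. BM MSC replicate 2 held 26.7 CPM of Emcn, 101 CPM of Pecam1 and 156 CPM of Cdh5, and its endothelial sum exceeded that of every P0 Emcn- and passaged library. The sum of 8 fibroblast and mesenchymal markers ran the other way, at 235 to 312.5 CPM in P0 Emcn+ BMECs and 16346 to 21394 CPM in P0 Emcn- BMECs. It was 13054 to 14143 CPM in lung Emcn- ECs, 4385 to 6775 CPM in passaged BMECs and 11200 to 19668 CPM in BM MSC. The part of these 2 marker lists in the results below was not tested.

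Plvap was the gene with the widest range. The P0 Emcn+ BMECs had 551 and 443 CPM of it (497 ± 76.2 CPM, SD, n = 2), and no other library exceeded 8.31 CPM. P0 Emcn- replicates 1 and 2 had 8.31 and 1.11 CPM (330 and 11 counts), a 7.49-fold gap within 1 condition. Lung Emcn- ECs had 2.60 and 5.16 CPM and BM MSC had 0.926 and 3.04 CPM. In the passaged cells Plvap was near the limit of counting, with 0.208 and 0.466 CPM at P1, 0.292 and 0.464 CPM at P2, 0.705 and 0.925 CPM at P3 and 0.605 CPM at P4, from 7 to 25 counts a library. The exact 95% counting interval of the lowest library, P1 replicate 1, was 0.0837 to 0.429 CPM, and that of P3 replicate 2 was 0.599 to 1.37 CPM. Those of P1 replicate 2, 0.248 to 0.797 CPM, and of P3 replicate 1, 0.4565 to 1.04 CPM, overlapped. From the highest mean to the lowest the order was P0 Emcn+, P0 Emcn-, lung, BM MSC, P3, P4, P2 and P1. P0 Emcn+ stood 106-fold above the next mean, while P0 Emcn- and lung overlapped, as did lung and BM MSC, and P2 and P1. In bulk RNA, fewer Plvap-positive cells and less Plvap RNA per cell cannot be told apart.

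Cav2 was also highest in the P0 Emcn+ BMECs, but it was present in every library. Its level was 162.8 and 162.7 CPM in P0 Emcn+ BMECs, 78.3 and 75.1 CPM in BM MSC and 14.5 and 10.9 CPM in P0 Emcn- BMECs. Between them lay lung with 29.5 and 29.9 CPM and the passaged cells, with 25.3 and 19.6 CPM at P1, 41.4 and 21.4 CPM at P2, 52.0 and 25.9 CPM at P3 and 53.5 CPM at P4. P0 Emcn+ lay 2.12-fold above BM MSC, the next mean, without overlap, and P3, P2 and lung overlapped in sequence. The highest mean exceeded the lowest 12.8-fold.

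Cav1 was spread over the conditions with less order. P0 Emcn+ BMECs had 367.5 and 833 CPM (600.5 ± 329 CPM, SD, n = 2), so that replicate 1 lay below P4, P3 replicate 1 and BM MSC replicate 1. P0 Emcn- BMECs were lowest, with 93.3 and 113 CPM. Lung had 323 and 291 CPM and BM MSC had 408.5 and 365 CPM. Emcn- BMECs had 214 and 203 CPM at P1, 344 and 227 CPM at P2, 469.6 and 263.5 CPM at P3 and 515 CPM at P4. Among neighbours in the order of means, P0 Emcn+ and P4 overlapped, as did BM MSC, P3, lung and P2 in sequence, while P1 and P0 Emcn- stood apart below them.

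Ehd2 changed least, with a 1.95-fold distance between its highest and lowest mean. It was at 555 and 676 CPM in P0 Emcn+ BMECs, 423 and 442 CPM in P0 Emcn- BMECs and 427.5 and 493 CPM in lung Emcn- ECs. It had 362 and 385 CPM at P1, 366 and 385 CPM at P2, 443 and 407.5 CPM at P3 and 463 CPM at P4. Both BM MSC libraries were lowest, at 317 and 313 CPM. Only P0 Emcn+ at the top, and BM MSC at the bottom, were separate from all other libraries, while P4, lung, P0 Emcn- and P3 overlapped in sequence.

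**Figure D1:**
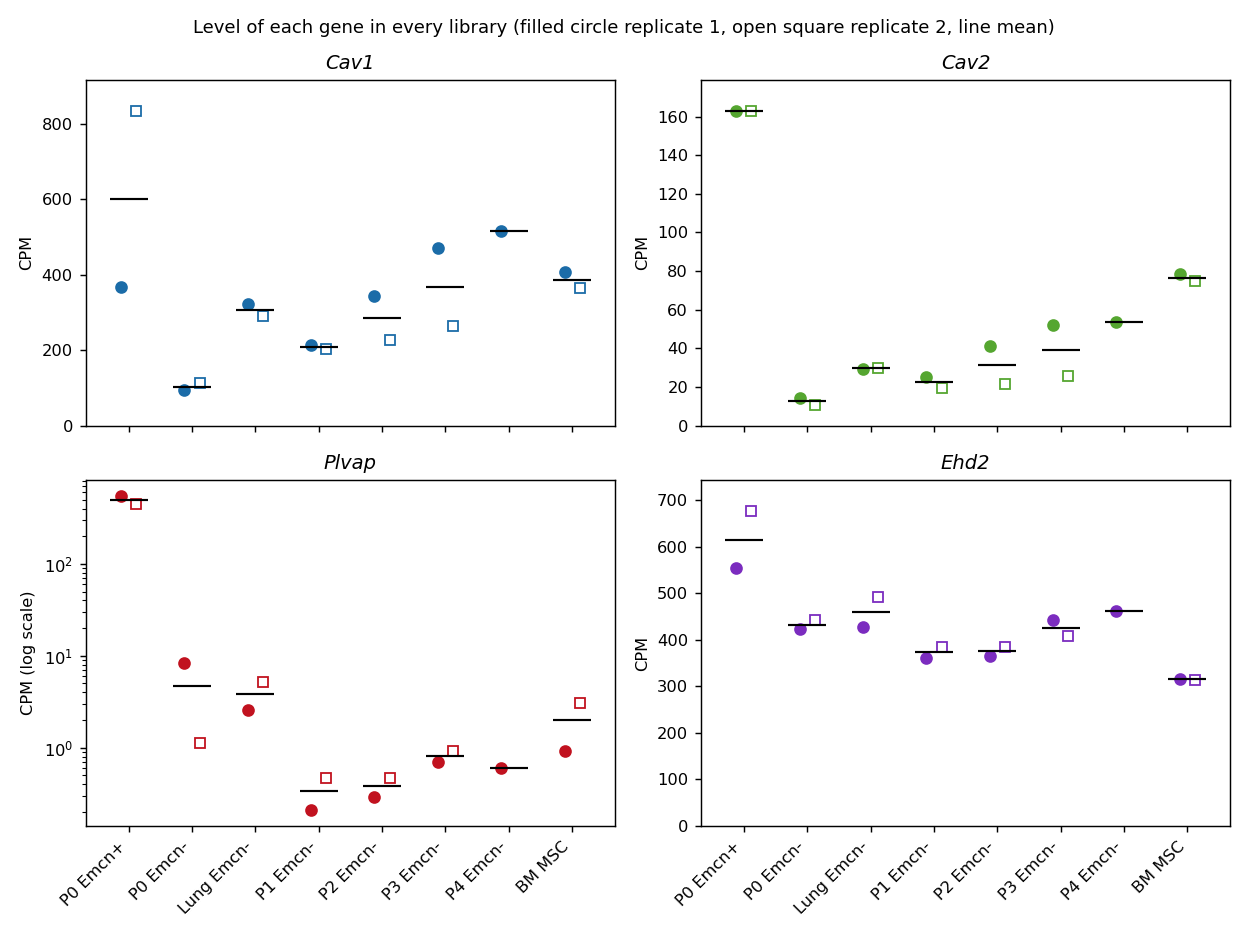
Level of Cav1, Cav2, Plvap and Ehd2 in CPM in each of the 15 libraries by condition. Filled circles are replicate 1, open squares replicate 2 and lines the mean; the Plvap axis is logarithmic. Plvap was 443 to 551 CPM in P0 Emcn+ BMECs and at most 8.31 CPM in any other library, while Ehd2 stayed between 313 and 676 CPM.

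Divided by the length of their merged exons, the genes had different orders of level in the 2 P0 populations. Mean levels in P0 Emcn+ BMECs were 250.2 CPM per kb for Plvap, 174 for Cav1, 120.3 for Ehd2 and 48.8 for Cav2. In P0 Emcn- BMECs Ehd2 led with 84.5 CPM per kb, followed by Cav1 with 29.9, Cav2 with 3.80 and Plvap with 2.37. Plvap was thus the highest of the 4 by the mean in P0 Emcn+ BMECs and the lowest in both P0 Emcn- libraries. In P0 Emcn+ replicate 2 alone, however, Cav1 was above Plvap, at 242 against 223 CPM per kb, and in replicate 1 they were at 107 and 277 CPM per kb.

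The comparison of P0 Emcn+ with P0 Emcn- BMECs asks how the populations split by endomucin differ after the same culture. A gene was called when it passed 2 limits in the edgeR quasi-likelihood test over 19401 genes: a p, adjusted after Benjamini and Hochberg, below 0.05, and a log2 fold change beyond 1.5 in either direction. Of the 4 genes, 3 were called, all higher in P0 Emcn+ BMECs, where 19.2% of all genes tested were called. Plvap was higher by 6.61 ± 0.81 on the log2 scale (standard error, edgeR adjusted p = 0.000162), a 97.6-fold difference. Without P0 Emcn- replicate 1 the Plvap value was 8.86, and without replicate 2 it was 5.94. Cav2 was higher by 3.70 ± 0.40 (edgeR adjusted p = 8.01e-05). Cav1 was higher by 2.57 ± 0.41 (edgeR adjusted p = 0.000826), and by 1.89 without P0 Emcn+ replicate 2, the library with the most Cav1. Ehd2 was higher by 0.54 ± 0.15 (edgeR adjusted p = 0.0165), which passed the p limit but not the fold limit. Leaving out P0 Emcn+ replicate 2 or P0 Emcn- replicate 1 took its adjusted p to 0.103 or 0.0502 in edgeR. Within the batches the log2 ratios of TMM-scaled CPM had the same direction for each gene, at 2.91 in batch a and 2.02 in batch d for Cav1, 3.93 and 3.53 for Cav2, 8.67 and 6.09 for Plvap, and 0.64 and 0.43 for Ehd2. The endothelial marker sum moved with these differences, as did the mesenchymal sum in the other direction, and their part in them was not tested. The sum of 7 macrophage markers was 491 to 533 CPM in P0 Emcn+ and 203 to 250.4 CPM in P0 Emcn- BMECs. That of 4 adipocyte markers was 2.74 to 7.23 CPM and 71.0 to 74.2 CPM. The part of these lists was not tested either.

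Lung cultures were set beside P0 Emcn- BMECs to compare cells of different organs that the study sorted as Emcn-, although Emcn RNA was higher in both lung libraries. Cav1 was the 1 gene of 4 called, in a comparison that called 3.83% of all genes, and it was higher in lung by 1.65 ± 0.39 on the log2 scale (edgeR adjusted p = 0.0399). The call was lost when any of the 4 libraries was left out, with log2 values of 1.52 to 1.77 and edgeR adjusted p of 0.0907 to 0.159. It was also lost when only the compared groups were fitted (edgeR adjusted p = 0.0588). Cav2 was 1.28 ± 0.37 above P0 Emcn- in lung and missed the limits (edgeR adjusted p = 0.0831, 95% interval 0.46 to 2.11). For Ehd2 the log2 difference was 0.16, with a 95% interval of -0.17 to 0.48. Plvap had a log2 difference of -0.39 with a 95% interval of -1.91 to 1.14, and its direction differed between batches, at 2.27 in batch a and -1.60 in batch d. Leaving out P0 Emcn- replicate 1 turned the fitted Plvap difference to 1.84 (edgeR adjusted p = 0.263), and leaving out lung replicate 1 turned it to 0.018. The macrophage sum was 17.0 to 18.1 CPM in lung against 203 to 250.4 CPM in P0 Emcn- BMECs, and the adipocyte sum was 1.34 to 11.3 CPM against 71.0 to 74.2 CPM. Their part in these values was not tested.

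Against lung Emcn- ECs, P0 Emcn+ BMECs had higher Plvap by 7.00 ± 0.82 (edgeR adjusted p = 0.000131) and higher Cav2 by 2.42 ± 0.38 (edgeR adjusted p = 0.00069). These 2 of 4 genes were called where 21.1% of all genes were called. The Cav2 ratio was 2.42 in both batches. Cav1 was 0.93 ± 0.39 higher in P0 Emcn+ BMECs and was not called (edgeR adjusted p = 0.0855, 95% interval 0.070 to 1.79). Its log2 ratio was 1.495 in batch a and 0.14 in batch d. Ehd2 had a log2 difference of 0.39 ± 0.15 (edgeR adjusted p = 0.0628). This comparison shares libraries with both comparisons described before it. The macrophage sum was 491 to 533 CPM in P0 Emcn+ BMECs against 17.0 to 18.1 CPM in lung, and its part was not tested.

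The step from P0 to P1 Emcn- BMECs was compared to see what the first replating changed. P0 and passaged libraries share no batch, so passage and batch cannot be told apart. The median log2 fold change of all genes was 0.019 with TMM scaling and -0.12 with scaling by total counts, so small values depend on the scaling. Plvap was the 1 gene of 4 called where 8.84% of all genes were called, and it fell by 3.82 ± 0.88 on the log2 scale (edgeR adjusted p = 0.0177). That call was lost without P0 Emcn- replicate 1, the P0 Emcn- library with the higher Cdh5, where the value was -1.59 (edgeR adjusted p = 0.376). Leaving out P1 replicate 1 or 2 gave values of -3.33 and -4.43, with edgeR adjusted p of 0.134 and 0.0718, and the call was lost too when only the compared groups were fitted (edgeR adjusted p = 0.107). Cav1 had a log2 difference of 1.18 ± 0.39 and Cav2 of 0.97 ± 0.37, and neither was called (edgeR adjusted p = 0.0622 and 0.0939). The P0 and P1 libraries did not overlap for any of the 4 genes, with P1 above P0 for Cav1 and Cav2 and below it for Plvap and Ehd2. The lack of overlap thus does not set Cav1 and Cav2 apart, and the share of all genes without overlap was not taken. Ehd2 had a log2 difference of -0.056, with a 95% interval of -0.38 to 0.27. The mesenchymal sum was 16346 to 21394 CPM at P0 and 6131 to 6775 CPM at P1, and the mural sum, of 6 markers, was 175 to 301.5 CPM and 68.9 to 69.2 CPM. Their part was not tested.

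From P1 to P3 none of the 4 genes was called by edgeR, DESeq2 or DESeq2 with shrinkage, in a comparison where edgeR called 0.222% of all genes. Cav1 had a log2 difference of 0.86 ± 0.39 (edgeR adjusted p = 0.367) and Cav2 one of 0.84 ± 0.36 (edgeR adjusted p = 0.349). Plvap had the largest fitted difference of the 4, at 1.32 ± 1.00 (edgeR adjusted p = 0.621), with log2 ratios of 1.81 in batch b and 1.01 in batch c. The P1 and P3 libraries did not overlap for any of the 4 genes, and the share of all genes without overlap was not taken. Within batch b, the only batch that reached P4, Cav1 went from 214 to 515 CPM between P1 and P4 and Cav2 from 25.3 to 53.5 CPM, with a higher value at each passage. Batch c ran from P1 to P3 with values of 203, 227 and 263.5 CPM for Cav1 and 19.6, 21.4 and 25.9 CPM for Cav2. The ratio of the last passage to P1 was 2.41 in batch b and 1.30 in batch c for Cav1, and 2.12 and 1.32 for Cav2. At P3 against P1 the log2 ratios for Cav1 were 1.18 in batch b and 0.40 in batch c, so that the size differed between the batches while the direction was the same. Ehd2 was 1.28-fold and 1.06-fold higher at the last passage of batches b and c. The macrophage marker sum moved the other way over these passages, from 69.6 to 228 CPM at P1 down to 9.02 CPM at P4. The mural marker sum moved with Cav1 and Cav2, at 68.9 to 69.2 CPM at P1, 100.03 to 110.4 CPM at P2, 141 to 151 CPM at P3 and 173 CPM at P4. The part of both sums in the values was not tested.

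**Figure D2:**
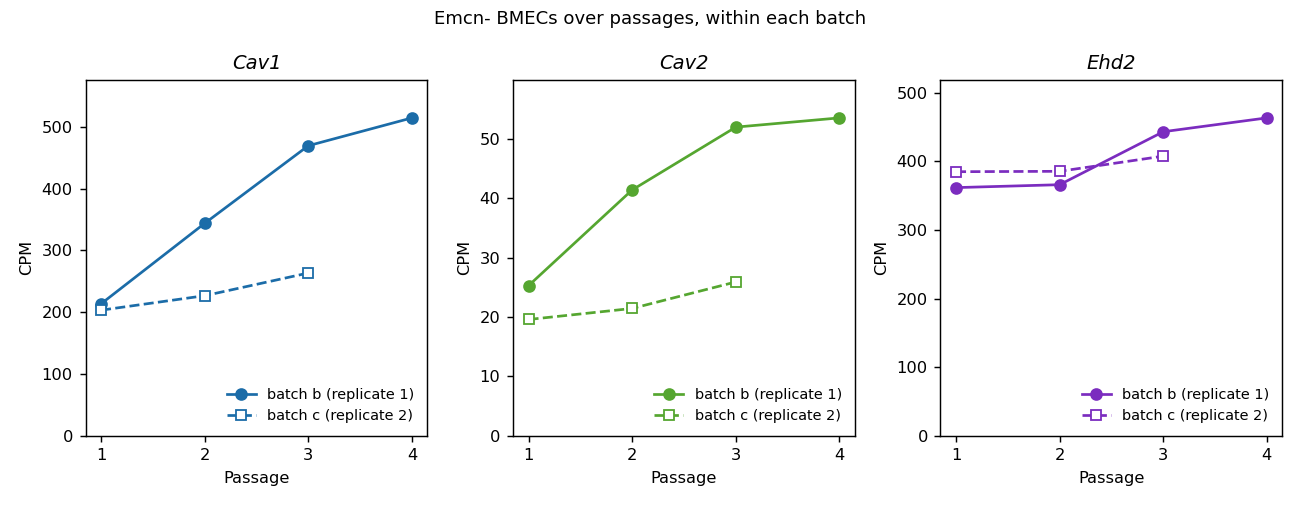
CPM of Cav1, Cav2 and Ehd2 against passage number in Emcn- BMECs, with 1 line per batch (filled circles batch b, open squares batch c) and each axis starting at 0. Cav1 went from 214 to 515 CPM in batch b over P1 to P4 and from 203 to 263.5 CPM in batch c over P1 to P3, and Cav2 followed the same order.

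BM MSC were compared as marrow stromal cells, and replicate 2 held the endothelial markers given above. Their libraries were made in batch c and share no batch with the P0 libraries, so population and batch cannot be told apart in the comparisons with P0. The sum of 6 mural cell markers was 1030 to 1300.2 CPM in BM MSC and 68.9 to 301.5 CPM in all other libraries, and its part in the values below was not tested. Against P0 Emcn- BMECs, BM MSC had higher Cav2 by 2.68 ± 0.39 (edgeR adjusted p = 0.000743) and higher Cav1 by 2.00 ± 0.40 (edgeR adjusted p = 0.00394), so 2 of 4 genes were called where 18.7% of all genes were. Plvap had a log2 difference of -1.32 ± 0.71 (edgeR adjusted p = 0.169). Leaving out P0 Emcn- replicate 1 turned it to 0.90. On leaving out replicate 2 of that group it was -2.02 and passed the limits (edgeR adjusted p = 0.0216). Ehd2 had a log2 difference of -0.36, with a 95% interval of -0.69 to -0.037 (edgeR adjusted p = 0.0788).

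Against P0 Emcn+ BMECs, BM MSC had lower Plvap, which fell by 7.93 ± 0.86 on the log2 scale (edgeR adjusted p = 5.08e-05). It was the 1 gene of 4 called where 31.3% of all genes were called. BM MSC replicates 1 and 2 differed 3.29-fold in Plvap, and the value was -7.32 without replicate 1 and -8.99 without replicate 2. The log2 difference was -1.03 ± 0.36 for Cav2 (edgeR adjusted p = 0.0358) and -0.91 ± 0.15 for Ehd2 (edgeR adjusted p = 0.000673), both short of the fold limit. For Cav1 the log2 difference was -0.57 ± 0.38 (edgeR adjusted p = 0.235), the libraries overlapped, and the value was 0.10 without P0 Emcn+ replicate 2.

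Against the mean of P1 to P3 Emcn- BMECs, Plvap was the 1 gene of 4 called, where 14.2% of all genes were called. Plvap was 1.98 ± 0.64 higher in BM MSC (edgeR adjusted p = 0.0388), from 0.926 and 3.04 CPM against 0.208 to 0.925 CPM. With the replicate block, which adds a term for the batches, the Plvap value was 1.69 and the call was lost (edgeR adjusted p = 0.139), whereas Cav2 was called at 1.72 (edgeR adjusted p = 0.000287). Without the block Cav2 was higher by 1.25 ± 0.27 (edgeR adjusted p = 0.00694), under the fold limit. Leaving out BM MSC replicate 2, in which Cdh5 was at 156 CPM against 7.86 CPM in replicate 1, gave a Plvap value of 0.93 (edgeR adjusted p = 0.507). The Plvap call was also lost on leaving out any 1 of the 6 passaged libraries, with edgeR adjusted p of 0.0524 to 0.0838. Within batch c the log2 ratios were 1.45 for Plvap, 1.72 for Cav2, 0.68 for Cav1 and -0.39 for Ehd2. In the fit, Ehd2 had a log2 difference of -0.40 ± 0.12 (edgeR adjusted p = 0.0301) and Cav1 of 0.37 ± 0.31 (edgeR adjusted p = 0.394).

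**Figure D3:**
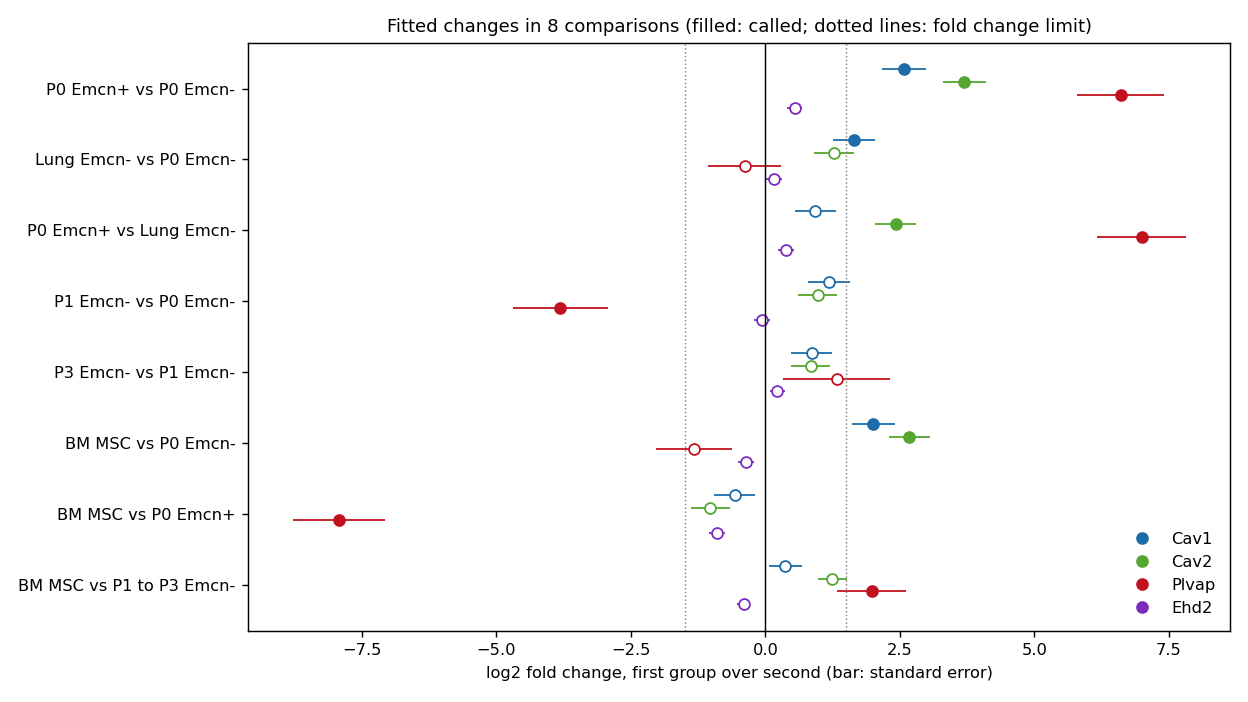
Log2 fold change of the 4 genes in the 8 comparisons, first group over second, with the standard error as a bar. Filled circles passed both limits, open circles did not, and dotted lines mark the log2 fold change limit of 1.5. Plvap ranged from -7.93 in BM MSC against P0 Emcn+ to 7.00 in P0 Emcn+ against lung, and Ehd2 was called in none of the 8.

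The balance of the 2 caveolins differed between conditions. Cav1 had 2.26 and 5.12 counts per Cav2 count in the P0 Emcn+ libraries and 5.22 and 4.86 in BM MSC. Elsewhere the ratio was 6.46 and 10.3 in P0 Emcn- BMECs, 10.97 and 9.72 in lung, and 8.31 to 10.6 in P1 to P4. All libraries of P0 Emcn+ and BM MSC thus had fewer Cav1 counts per Cav2 count than the other 11 libraries, although the P0 Emcn+ replicates differed in Cav1 while their Cav2 was nearly the same. Plvap was also read against Cdh5, an endothelial gene whose level ranged from 0.0564 to 6222 CPM. There were 8.85 and 8.66 Plvap counts per 100 Cdh5 counts in P0 Emcn+ BMECs, 6.95 and 17.5 in P0 Emcn- BMECs and 6.56 and 3.02 in lung. In BM MSC there were 11.8 and 1.95. The P0 Emcn- replicate with more Plvap was also the one with more Cdh5, at 119 against 6.35 CPM, and the same order held for the lung and for the BM MSC libraries. In the passaged cells the ratio was higher, from 18.4 to 93.3 over P1 and P2 and from 275 to 1250.0 over P3 and P4. These rest on 7 to 25 Plvap and 2 to 65 Cdh5 counts, and that of P0 Emcn- replicate 2 on 11 and 63 counts. Per 100 Pecam1 counts, however, the passaged cells had 1.74 to 8.65 Plvap counts, below all P0 libraries. That ratio was 22.3 and 19.6 in P0 Emcn+ BMECs, 17.4 and 21.6 in P0 Emcn- BMECs, 7.04 and 3.17 in lung and 6.17 and 3.01 in BM MSC. The direction from P0 to the passaged cells thus depended on the endothelial gene used. Ratios to other endothelial markers were not taken, and the P0 ratios hold for Cdh5 and Pecam1 only. Tek differed less between the P0 populations, at 168 and 125 CPM in P0 Emcn+ BMECs and 20.3 and 49.4 CPM in P0 Emcn- BMECs. Its higher P0 Emcn- library was replicate 2, the one with less Plvap.

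**Figure D4:**
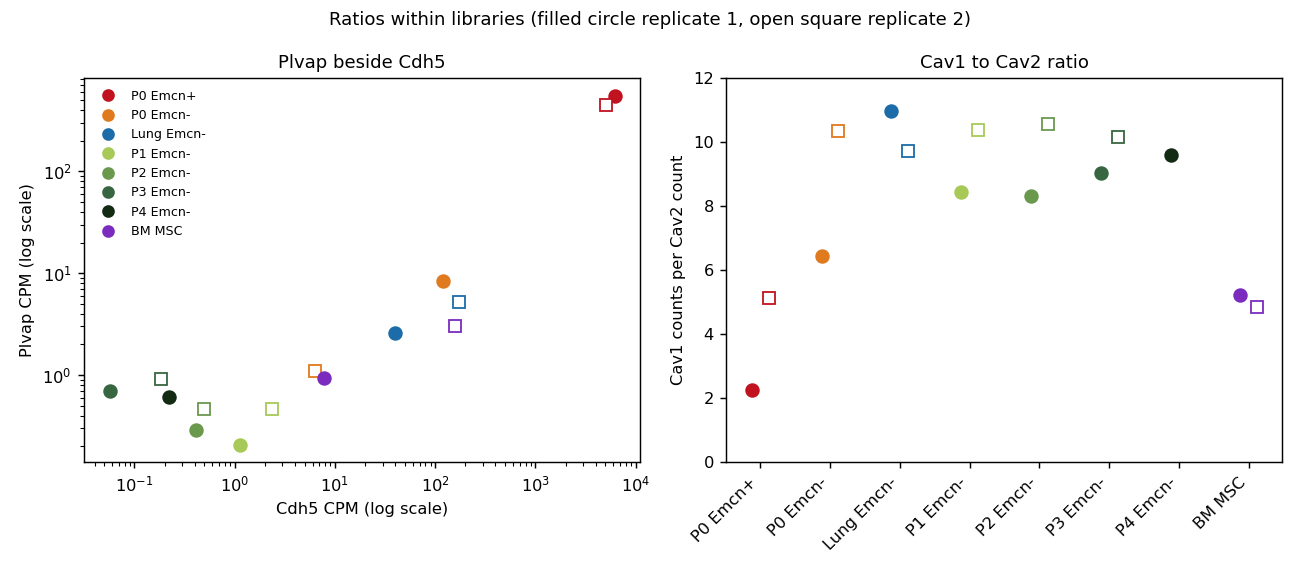
On the left, Plvap CPM against Cdh5 CPM in the 15 libraries, both on log axes, coloured by condition. On the right, Cav1 counts per Cav2 count by condition. Filled circles are replicate 1 and open squares replicate 2. The 2 P0 Emcn+ libraries lie alone at the top right of the first panel, and at 2.26 and 5.12 they are, with BM MSC, low in the second.

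The wider machinery was read from a list of 26 other genes of caveolae, transcytosis and fenestrae. All 26 passed the filter. In P0 Emcn+ against P0 Emcn- BMECs 11 of 26 were called, 6 higher and 5 lower, where 19.2% of all genes were called, with a list median of -0.18 against -0.057 for all genes on the log2 scale. The genes higher in P0 Emcn+ BMECs included Kdr, a VEGF receptor, higher by 5.65 ± 1.06 (edgeR adjusted p = 0.00235), at 587 and 288 CPM against 14.9 and 1.82 CPM. Flt1 and Nrp1, also listed for VEGF, had log2 differences of -0.095 and -1.11 (edgeR adjusted p = 0.981 and 0.0427) and were not called. Nos3, the endothelial nitric oxide synthase that resides in caveolae, was higher by 5.41 ± 1.09 (edgeR adjusted p = 0.00353), and Scarb1, a receptor for high-density lipoprotein, by 3.47 ± 0.41 (edgeR adjusted p = 0.000137). Ehd4, a relative of Ehd2, was higher by 3.52 ± 0.29 (edgeR adjusted p = 1.5e-05), at 222 and 295 CPM against 27.5 and 18.1 CPM. Kdr, Nos3 and Scarb1 had less RNA in P0 Emcn- replicate 2 than in replicate 1, and without replicate 1 their values were 7.96, 8.13 and 4.57.

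On the other side, Dnm1, the dynamin best known from nerve cells, fell by 6.03 ± 0.36 in P0 Emcn+ BMECs (edgeR adjusted p = 2.63e-06), at 1.71 and 2.78 CPM against 107 and 192 CPM. Dnm2, the dynamin of most cells, had a log2 difference of 0.50 and was not called. Vegfa, the ligand of Kdr, fell by 2.27 ± 0.35 (edgeR adjusted p = 0.000728), and by 1.73 without P0 Emcn+ replicate 2 and by 3.10 without replicate 1. Aqp1, a water channel, was lower in P0 Emcn+ BMECs and fell by 3.29 ± 1.05 (edgeR adjusted p = 0.0339), at 4.53 and 5.37 CPM against 86.7 and 11.1 CPM. That call was lost on leaving out either P0 Emcn+ library, or P0 Emcn- replicate 1, which gave -1.11, and when only the compared groups were fitted (edgeR adjusted p = 0.0677). Cavin4, the cavin of muscle, fell by 2.51 ± 0.72 (edgeR adjusted p = 0.0221) at levels under 1 CPM in the P0 libraries, and lost its call without the same 3 libraries. Of the cavins that coat caveolae in most cells, Cavin1 was at 596 to 1505 CPM across the libraries, and its log2 difference between the P0 populations was -0.25 (edgeR adjusted p = 0.543). The other called genes were Cavin2 and Ehd3, higher in P0 Emcn+ BMECs, and Pacsin3, lower. Cav3, the muscle caveolin, was at 0.561 CPM or less in every library.

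In lung Emcn- ECs against P0 Emcn- BMECs 3 of the 26 genes were called, all higher in lung, where 3.83% of all genes were called, with a list median of 0.27 against 0.0 for all genes. Cavin2, which shapes caveolae, was higher by 2.57 ± 0.54 (edgeR adjusted p = 0.0223), at 212 and 340 CPM against 21.1 and 76.8 CPM. Its value was 1.92 without P0 Emcn- replicate 1 and 3.76 without replicate 2. Without P0 Emcn- replicate 1 or lung replicate 2 it was not called (edgeR adjusted p = 0.0526 and 0.0862). Nostrin, an adaptor for the trafficking of nitric oxide synthase, was higher by 2.02 ± 0.27 (edgeR adjusted p = 0.00335). Its levels were low, at 5.14 and 5.72 CPM in lung against 1.61 and 1.11 CPM (64 and 11 counts) in P0 Emcn- BMECs. With 1 library left out its value was 1.80 to 2.36, and the call was kept. Ehd4 was higher by 1.84 ± 0.27 (edgeR adjusted p = 0.00547), and by 1.49 without lung replicate 2, just under the fold limit. When only the compared groups were fitted, none of the 3 was called (edgeR adjusted p = 0.188 for Cavin2, 0.125 for Nostrin and 0.0933 for Ehd4).

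Between P0 and P1 Emcn- BMECs 3 of the 26 were called, 1 higher and 2 lower, where 8.84% of all genes were called, with a list median of 0.049 against 0.019 for all genes. Cavin2 was again the higher one, by 2.43 ± 0.53 (edgeR adjusted p = 0.0142), and lost its call without P1 replicate 1 or 2. Its value was 1.76 without P0 Emcn- replicate 1 and 3.60 without replicate 2. Nos3 fell by 4.72 ± 1.37 (edgeR adjusted p = 0.041), from 6.55 and 0.605 CPM to 0.0595 and 0.215 CPM. With the replicate block its call was lost (edgeR adjusted p = 0.066), as it was without P0 Emcn- replicate 1 or either P1 library. Mfsd2a, a lipid transporter known to hold caveolar transcytosis down in brain endothelium, fell by 2.03 ± 0.50 (edgeR adjusted p = 0.0225), at 1.01 CPM or less throughout, and lost its call without the same libraries. It also lost it with DESeq2 (DESeq2 adjusted p = 0.0502), where shrinkage gave a value of -0.92. When only the compared groups were fitted, none of the 3 was called. The lung and P1 comparisons share the P0 Emcn- libraries, of which replicate 1 had the least Cavin2 of all 15.

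In the other comparisons the called genes of the list numbered 7 of 26 for P0 Emcn+ against lung (4 higher, 3 lower), where 21.1% of all genes were called. BM MSC had 5 against P0 Emcn- (3 higher, 2 lower) beside 18.7% of all genes, and 12 against P0 Emcn+ (5 higher, 7 lower) beside 31.3%. Against P1 to P3 they had 5 (3 higher, 2 lower) beside 14.2%. For BM MSC against P0 Emcn- the replicate block left 3. Between P1 and P3 none of the 26 was called by edgeR, DESeq2 or DESeq2 with shrinkage.

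**Figure D5:**
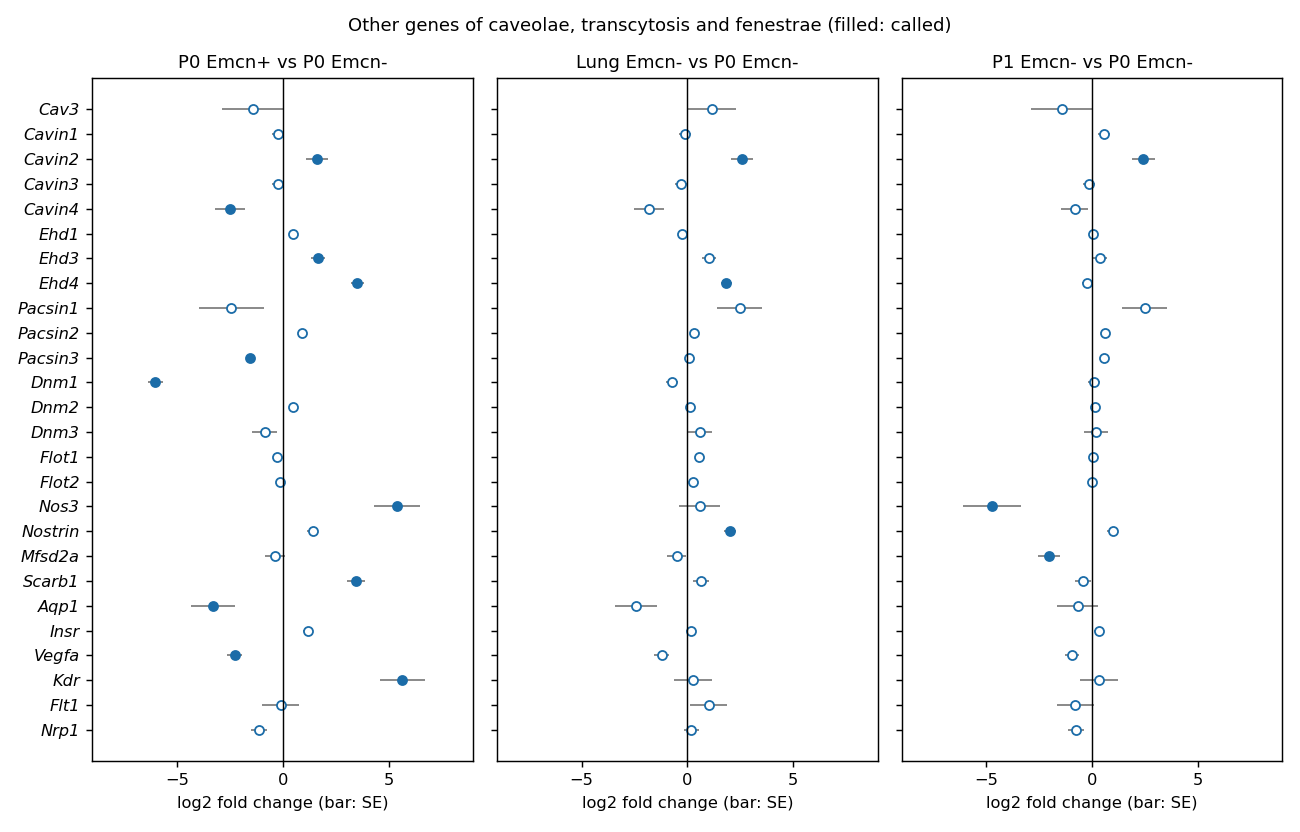
Log2 fold change of the 26 other genes in 3 comparisons, with the standard error as a bar; filled circles passed both limits. In P0 Emcn+ against P0 Emcn- BMECs Kdr (5.65), Nos3 (5.41), Ehd4 (3.52) and Scarb1 (3.47) lie to the right and Dnm1 (-6.03) to the left, while 3 genes are filled in each of the other panels.

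Likeness of pattern was measured by Pearson's r of log2(CPM + 1) over the 15 libraries, which share batches and depth, and is given without a test. Cav1 and Cav2 had an r of 0.85, which put Cav1 at place 161 among all genes tested by likeness to Cav2, and Cav2 at place 13 by likeness to Cav1. Plvap had an r of 0.76 with Ehd2, 0.66 with Cav2 and 0.35 with Cav1. By likeness to Plvap, Ehd2 was at place 2615, Cav2 at 3844 and Cav1 at 6972. Plvap was at place 709 by likeness to Ehd2. Ehd2 had an r of 0.32 with Cav1 and 0.36 with Cav2. Genes outside the list came closer. Most like Plvap were Sh3tc1 (0.996), Adora2a (0.994), Ushbp1 (0.994), Ccm2l (0.994) and Kif26a (0.993). For Cav1 they were Sorbs2 (0.959), Tmod3 (0.932), Tdrd7 (0.902), Zfp52 (0.90) and Clic4 (0.898), and for Cav2 they were Mid2 (0.959), Mob1a (0.958), Rab11a (0.956), Rb1 (0.956) and Map7 (0.95). Most like Ehd2 were Gata3 (0.963), Akt1 (0.96), Gm16286 (0.955), Wars (0.945) and Mob3c (0.936). Over the 8 condition means in place of the libraries, 2 of the 5 genes for Cav1, 0 for Cav2, 3 for Plvap and 1 for Ehd2 were again among the 5 most like.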

How the data were processed

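Bulk RNA-seq of 15 mouse libraries was analysed, with groups, replicate numbers and batches from the sample labels. The authors mapped trimmed reads to GRCm38 with STAR, estimated transcript abundance with Salmon and deposited whole-number counts per gene without normalization, and how the estimates were rounded is not given in the sources used here. Of the genes, 8 have a blank symbol. Library totals were 9914620 to 39718807 counts. Intervals of CPM in single libraries cover counting error only. Those of log2 differences were built from the standard error of the edgeR fit, which includes the spread between libraries.

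CPM were computed on library totals. Tests across genes used edgeR 4.0.16 under R 4.3.3 (TMM factors 0.925 to 1.09, filterByExpr with minimum count 10 and minimum total 15, quasi-likelihood F test, 1 coefficient per condition, all 15 libraries). This left 19401 genes, 7 residual and 3.07 prior degrees of freedom, and p-values were adjusted by Benjamini-Hochberg over all of them. The script was tested on simulated data. The study's own test was DESeq2 with ashr shrinkage, used here as an alternative (DESeq2 1.42.0, ashr 2.2.63).

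The 4 genes, the list of 26 genes, the marker lists and the tests were chosen with earlier results of these data known. Of the 26, values are given for those called in 3 comparisons against P0 Emcn- BMECs, at most the 8 with the largest absolute log2 fold change in each. For each of the 4 genes the 5 genes of highest r are named. Cavin1, Cav3, Dnm2, Cavin2, Ehd3, Pacsin3, Flt1 and Nrp1 are named beside the P0 comparison outside this rule, after their values were seen.

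The other settings tried were RLE factors, no filter, a filter of 50 counts in 2 libraries, DESeq2 by the Wald test and with ashr, a replicate block of batch terms, only the compared groups, no fold limit, each library left out in turn and, added after seeing the data, scaling by total counts. By the labels, same-numbered libraries share a batch among P0 and lung, where deviations from group means correlated by 0.136 to 0.335 across genes, and among the passages P1 to P3, where they correlated by 0.528 to 0.706. Within-batch ratios are of CPM on TMM-scaled totals. Sequences are from RefSeq promoter windows, which were matched for 3 of the 4 genes (Plvap has no entry), and coordinates from GENCODE M21.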

Additional observations from a re-analysis of the deposited data

How the results depend on the processing

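Of 432 tests of the 4 genes under an alternative, 278 with another setting and 125 with a library left out kept direction and side of the limits. The number of the 4 genes called for lung against P0 Emcn- went from 1 to 0 with DESeq2 and ashr, with only the compared groups and with each library left out (0 to 0), and for P1 against P0 Emcn- from 1 to 0 with only the compared groups (0 to 1 with libraries left out). Without the fold limit it went from 1 to 3 for BM MSC against P0 Emcn+ and against P1 to P3, and the latter was 0 to 1 with libraries left out. With libraries left out it was 2 to 3 for BM MSC against P0 Emcn-. Directions reversed for Plvap in lung against P0 Emcn- (1.84 without P0 Emcn- replicate 1, 0.018 without lung replicate 1, range -1.08 to 1.84), for Plvap in BM MSC against P0 Emcn- (0.90 without P0 Emcn- replicate 1, range -2.38 to 0.90) and for Cav1 in BM MSC against P0 Emcn+ (0.10 without P0 Emcn+ replicate 2, range -1.08 to 0.10). The causes were not tested. Leaving a library out leaves a lone library, assumed to vary like the other groups.

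With the replicate block, Plvap in BM MSC against P1 to P3 lost its call (1.69) and Cav2 gained one (1.72), and no other call of the 4 genes changed. Both BM MSC libraries are of batch c, so the block places them by how far batches b and c differ in passaged cells. The block also took the count of all genes called from P1 to P3 from 43 to 106, and there DESeq2 called 303, DESeq2 with ashr 150, no filter 170, only the compared groups 153, and the fits without 1 library 0 to 41.

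Without the fold limit the counts of all genes rose to 6609, 7209, 3387, 6853, 9996 and 6206 for P0 Emcn+ against P0 Emcn-, P0 Emcn+ against lung, P1 against P0, and BM MSC against P0 Emcn-, P0 Emcn+ and P1 to P3, and those of the 26-gene list to 17, 14, 6 and 12 in the first 4 and 14 in the last. With only the compared groups, 145 genes were called for lung, 968 for P1 and 2396 for BM MSC against P0 Emcn-, and 0, 0 and 2 of the 26. With libraries left out the list gave 1 to 3 for lung, 0 to 3 for P1, 1 to 5 for BM MSC against P0 Emcn- and 3 to 5 against P1 to P3, and all genes 406 to 675 for lung and 805 to 2196 for P1. On TMM-scaled totals the P4 levels of Cav1 and Ehd2 were 556 and 501 CPM. Plvap in passaged cells rests on 7 to 25 counts a library.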
